A study of Mus musculus with 2 samples.

Results

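The late step of culture under FGF receptor inhibition was followed in XY foetal germ cells, by comparing germ cells taken after 72 h with those taken after 24 h in the same inhibitor. The members were taken by library name and were 8 of the 40 germ cell libraries of the study, 4 at 24 h (replicates 1, 3, 4 and 5) and 4 at 72 h (replicates 2, 4, 5 and 6). All 8 came from gonads of XY E12.5 embryos of Swiss females mated to Oct4(Pou5f1)-eGFP males on the 129svJT2 background, otherwise wild type, cultured with the mesonephros attached in medium with 500 nM BGJ398/Infigratinib (FGFRi), a kinase inhibitor of FGF receptors. Each library was made from several gonads combined, and germ cells were sorted on the green fluorescence of the Oct4 transgene after the mesonephros was removed. The inhibitor was given to the whole gonad in the medium, so direct effects on germ cells and effects through somatic cells cannot be told apart.

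The same interval was measured in XY germ cells cultured with DMSO, the vehicle of the inhibitors, and with 500 nM PD0325901/Mirdametinib (MEKi), an inhibitor of the kinases MEK1 and MEK2, each with 4 libraries at 24 h and 4 at 72 h. These libraries served only to show where the FGFRi interval differed. Libraries had been made in 2 pools of 20. Both FGFRi groups were in pool 2, whereas the 24 h DMSO and 24 h MEKi groups were in pool 1 and their 72 h groups in pool 2. A difference between the FGFRi interval and either other interval therefore cannot be told apart from a difference between the pools, while the FGFRi interval itself was measured within 1 pool.

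Foetal germ cells in a testis leave the pluripotent, dividing state of the primordial germ cell, pass through a short period of NODAL activity, stop dividing in G1, and then prepare the piRNA machinery and the de novo DNA methylation that silence transposons. FGF9 from Sertoli cells signals through FGF receptors, and MEK1 and MEK2 relay this and other inputs to the ERK kinases, whose targets include ETS factors, Sprouty proteins and dual-specificity phosphatases. Germ cells of the ovary enter meiosis over the same days.

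Total counts of unique molecules were 1264805 to 1970069 in the 24 h libraries and 2262671 to 5199153 in the 72 h libraries, with 17737 to 20319 and 22807 to 27474 genes detected, so depth moved with time. Trimmed-mean scaling factors (TMM) also differed, at 0.916 to 0.969 at 24 h and 1.04 to 1.15 at 72 h. Values below are TMM-scaled CPM, a count relative to the scaled library total, listed by replicate number, and were not divided by transcript length because molecules were primed at the poly(A) tail, so they are compared within a gene only. Replicates of a group differed by more than sampling noise (chi-square per degree of freedom 2.18 to 5.90), so none was a copy of another. Each 72 h FGFRi library shared its sample index with a 24 h DMSO library of XX germ cells in pool 1. For each 72 h FGFRi library, the lowest ratio to its partner over genes abundant in the partner was 0.837 to 3.44%. That ratio was taken as the limit on counts from the partner. A lowest ratio carries counting error and may lie too low, and the regression planned first gave 4.68 to 29.8%. Removing counts up to that lowest ratio kept 5069 of the calls below, lost 37 and gained 119, and none turned direction.

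The sort was checked on markers fixed for the analysis. Of the 12 germ cell identity genes, 3 rose and 6 fell (5 and 4 with total-count scaling), and together they held 0.731 ± 0.0635% (SD, n = 4) at 24 h and 0.482 ± 0.0428% at 72 h of all counts, a difference at the smallest p of a two-sided exact permutation test of 4 against 4 libraries, 0.0286, and at 0.05 after Benjamini-Hochberg adjustment over 7 such shares. The summed level of 25 gonadal somatic markers was 70.9 to 104 CPM at 24 h and 108 to 139 CPM at 72 h, and their share of counts was higher at 72 h at the same p and adjusted p. Of these markers 16 had a higher mean at 72 h, among them Pax8, at 1, 2, 2 and 5 counts at 24 h and 105, 66, 61 and 57 counts at 72 h. The Leydig cell peptide Insl3 and the Sertoli cell hormone Amh were at 0 counts in all 8 libraries. The steroidogenic enzyme genes Cyp11a1 and Cyp17a1 were at 0 counts at 24 h and at 20, 6, 6 and 4 and 6, 2, 3 and 1 counts at 72 h, and Star went from 0, 3, 5 and 4 to 61, 33, 20 and 19 counts. The 17 blood and endothelial markers summed to 61.1 to 81.2 CPM at 24 h and 44.9 to 90.5 CPM at 72 h, with the macrophage gene Adgre1 and the pan-leukocyte gene Ptprc at 0 counts at 24 h and the macrophage gene C1qa at 0 counts at 72 h. The haem synthesis gene Alas2 rose, from 0 counts at 24 h to 67, 24, 27 and 15 counts at 72 h. The 4 Y-linked genes took 0.0201 ± 0.00122% (SD, n = 4) at 24 h and 0.0152 ± 0.00129% at 72 h of counts, a difference at the same p and adjusted p, and X-linked genes took 2.96 ± 0.054% (SD, n = 4) at 24 h and 2.98 ± 0.12% at 72 h of counts.

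Over the late interval with FGFRi, 2934 of 15252 genes tested were higher at 72 h (19.2%) and 2172 were lower (14.2%), by treat in limma against a fold change of 1.5 with a false discovery rate (FDR) under 0.05. The first principal component of the 8 libraries carried 87.8% of the variance of the 2000 most variable genes and separated the 2 times. Over all genes tested the median log2 fold change was 0.07. Scaled by total counts alone it was 0.29 and the split became 3632 higher and 1479 lower, so directions of small changes depend on the scaling. In bulk libraries, a lower level per cell and a smaller share of cells with a transcript cannot be told apart.

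**Figure D1:**
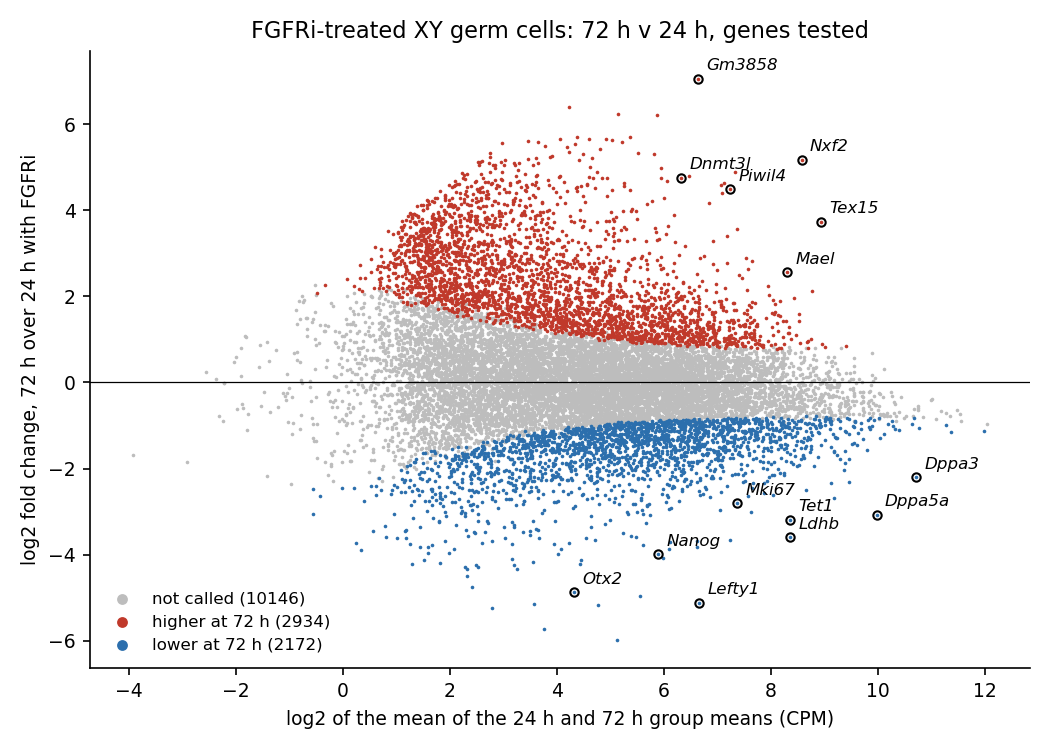
Each point is 1 of 15252 genes tested, with the mean level on the x axis (log2 CPM) and the log2 fold change of 72 h over 24 h with FGFRi on the y axis. Genes called higher (2934) and lower (2172) are coloured, and circled genes such as Gm3858 at 7.05 and Lefty1 at -5.12 are named in the text.

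The piRNA pathway, in which PIWI proteins carry small RNAs against transposons, was the list with the largest share of members that rose. Of 25 tested members, 19 rose and 1 fell, while 5 did not pass, against 19.2% and 14.2% over all genes, and the median log2 fold change was 2.09 against 0.07. Tdrd6, the other member listed, was too low to be tested. Of the PIWI proteins, Piwil4 (MIWI2), the nuclear effector of de novo methylation, was at 9.55, 8.96, 17.2 and 13.2 CPM at 24 h and 288, 243, 307 and 325 CPM at 72 h (log2 fold change 4.50 ± 0.27 (SE), adjusted p = 1.2e-17). Piwil2 (MILI), which processes piRNAs in the cytoplasm, was at 92.9, 58.7, 104 and 89.1 CPM at 24 h and 406, 369.7, 469 and 383 CPM at 72 h (log2 fold change 2.24 ± 0.13 (SE), adjusted p = 2.5e-16). Every 72 h library was above every 24 h library for both genes. Piwil1 (MIWI), best known from later spermatogenesis, also rose, from a mean of 6.9 to 51.4 CPM.

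Among the other members, Tdrd1, which binds PIWI proteins through their methylated arginines, was at 26.9, 18.7, 28.1 and 28 CPM at 24 h and 308, 277, 304 and 333 CPM at 72 h (log2 fold change 3.56 ± 0.19 (SE), adjusted p = 1.0e-18). Tdrd9, a helicase partner of PIWIL4, was at 6.08, 5.7, 24.7 and 7.91 CPM at 24 h and 277, 260.2, 399.7 and 304 CPM at 72 h (log2 fold change 4.88 ± 0.39 (SE), adjusted p = 7.9e-14). Mael was at 99, 69.3, 94.1 and 93.9 CPM at 24 h and 456, 506, 598 and 613 CPM at 72 h (log2 fold change 2.56 ± 0.13 (SE), adjusted p = 4.5e-18). None of these groups overlapped. Tex15, needed for piRNA-directed methylation, had the largest rise in mean CPM among genes called with groups that did not overlap, from 52.1, 53.8, 91.2 and 67.5 CPM to 781, 857, 1068 and 930.3 CPM (log2 fold change 3.73 ± 0.16 (SE)). Spocd1, a nuclear partner of PIWIL4, rose from a mean of 6.6 ± 5.71 CPM (SD, n = 4) to 170.0 ± 30.9 CPM, and the piRNA methyltransferase Henmt1 from 1.64 to 25 CPM. Gtsf1 (log2 fold change 4.41), Fkbp6 (2.12), Mov10l1 (1.97) and Ddx4, the vasa helicase (1.00), also rose. Tdrd12 was the 1 member that fell, from 99.1 to 52.8 CPM (log2 fold change -0.92 ± 0.14 (SE)). Tdrd12 lost its call with DESeq2 size factors, total-count scaling, DESeq2, low counts kept or thinned counts, or without 24 h replicate 5, 72 h replicate 2 or 72 h replicate 5. The DMSO interval gave 18 risers of the same list with a median of 1.89, the MEKi interval 16 with a median of 1.68, and no member's interval was called different between FGFRi and either.

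Because these genes moved together, their promoters were read from RefSeq on GRCm38.p6, over 250 bases before to 50 after each start. The letters CACGTG, an E-box that reads the same on both strands, stood in 10 of 21 promoters (47.6%) of the 14 risers of the piRNA list with a sequence, in 312 of 2843 promoters (11%) of all risers, in 164 of 1701 (9.64%) of all genes that fell, and in 1298 of 13022 (9.97%) of all genes tested. This is a count of letters without a test, since alternative promoters of a gene can share sequence. The letters CCAAT or ATTGG stood in 10 of 14 promoters (71.4%) of the proliferation genes that fell, and in 38.4% of those of all genes tested. TCCCGC or GCGGGA stood in 57.1% and 35.3% of the same windows. Windows of 4 genes that rose and of 1 that fell are printed because they hold several copies, 5′ to 3′ along the gene, with these 3 kinds of letters in capitals. They were chosen after the matches were seen.

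Nxf2, chrX:134964705-134965004, - strand: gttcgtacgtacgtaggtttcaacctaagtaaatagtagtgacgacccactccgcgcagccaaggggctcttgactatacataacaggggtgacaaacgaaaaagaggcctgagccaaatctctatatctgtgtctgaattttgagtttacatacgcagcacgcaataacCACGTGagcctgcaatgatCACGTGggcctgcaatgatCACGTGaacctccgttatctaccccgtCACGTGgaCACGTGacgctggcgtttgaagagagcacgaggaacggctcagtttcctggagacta
Tdrd9, chr12:111971309-111971608, + strand: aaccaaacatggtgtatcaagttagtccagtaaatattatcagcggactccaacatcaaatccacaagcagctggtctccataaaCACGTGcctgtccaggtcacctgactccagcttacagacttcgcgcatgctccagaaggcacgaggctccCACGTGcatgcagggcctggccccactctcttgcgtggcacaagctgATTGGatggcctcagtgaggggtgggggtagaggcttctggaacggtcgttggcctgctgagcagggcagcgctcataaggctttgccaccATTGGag
Fkbp6, chr5:135349995-135350294, - strand: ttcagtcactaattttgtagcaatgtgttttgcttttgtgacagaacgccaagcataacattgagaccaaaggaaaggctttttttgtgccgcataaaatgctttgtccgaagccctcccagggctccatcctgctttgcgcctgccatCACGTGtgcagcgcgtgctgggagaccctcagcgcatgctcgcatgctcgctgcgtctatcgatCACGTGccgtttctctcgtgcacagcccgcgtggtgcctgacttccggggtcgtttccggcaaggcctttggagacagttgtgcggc
Mael, chr1:166238695-166238994, - strand: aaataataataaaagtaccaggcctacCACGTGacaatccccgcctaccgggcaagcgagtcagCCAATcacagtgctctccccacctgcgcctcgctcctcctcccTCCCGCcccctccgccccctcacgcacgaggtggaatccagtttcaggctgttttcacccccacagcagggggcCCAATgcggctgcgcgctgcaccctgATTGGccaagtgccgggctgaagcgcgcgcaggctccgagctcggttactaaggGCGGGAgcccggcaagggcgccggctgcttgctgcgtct
Ccnb2, chr9:70421505-70421804, - strand: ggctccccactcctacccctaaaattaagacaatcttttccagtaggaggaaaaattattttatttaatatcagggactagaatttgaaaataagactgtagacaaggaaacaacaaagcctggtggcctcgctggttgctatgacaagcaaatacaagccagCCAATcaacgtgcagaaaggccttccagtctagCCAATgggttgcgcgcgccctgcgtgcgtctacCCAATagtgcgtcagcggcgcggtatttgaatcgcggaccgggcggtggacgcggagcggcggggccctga

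Nxf2 holds 5 copies of CACGTG within the window printed, while its other window holds none and has GCGGGA once. Tdrd9 and Fkbp6 hold 2 each, and Mael holds 1 beside matches to both other kinds, while Ccnb2 holds 3 copies of CCAAT and no CACGTG. The windows of the large risers Piwil4 and Gtsf1 hold none of the 3.

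Of 18 tested members of the male germline list, 10 rose and 1 fell (55.6% and 5.56%, beside 19.2% and 14.2% of all genes), while 7 did not pass, with a median of 1.28. Nxf2, an X-linked RNA export factor, was at 20.8, 6.52, 50.5 and 16.4 CPM at 24 h and 598, 698, 787 and 872 CPM at 72 h (log2 fold change 5.17 ± 0.34 (SE), adjusted p = 1.4e-16). Dnmt3l, the cofactor of de novo methylation, was at 6.95, 3.26, 7.46 and 4.22 CPM at 24 h and 156, 127, 211 and 125 CPM at 72 h (log2 fold change 4.76 ± 0.42 (SE), adjusted p = 2.5e-12). All 72 h libraries were above all 24 h libraries for both, by over an order of magnitude in the means. Morc1, which silences transposons, rose from 25.2 to 266 CPM, the bromodomain gene Brdt from 90.2 to 304 CPM, the X-linked homeobox gene Rhox10 from 6.91 to 82.8 CPM and the surface protein gene Tex101 from 37.1 to 216 CPM. Dppa4, a chromatin protein used as a male germline marker, rose from 405, 329, 367 and 366 CPM to 560.1, 657, 669 and 779 CPM, a log2 fold change of 0.82 ± 0.10 (SE) with an adjusted p of 0.040 in limma. Dppa4 lost its call without 24 h replicate 3, 24 h replicate 4, 24 h replicate 5, 72 h replicate 4 or 72 h replicate 6. Nanos2, the RNA-binding regulator of male fate, had groups that overlapped, at 20.8, 22.8, 19.5 and 15.3 CPM at 24 h and 21.8, 24.5, 11.2 and 21.1 CPM at 72 h (log2 fold change 0.07 ± 0.25 (SE), adjusted p = 1.0), and did not pass with DMSO, at means of 21.8 and 27.3 CPM. With MEKi it rose from 1.94 to 10.5 CPM. Dazl, an RNA-binding protein of all early germ cells, was the member that fell, from 1946, 1741, 1573 and 1599 CPM to 721, 825, 853 and 928 CPM (log2 fold change -1.07 ± 0.10 (SE)).

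**Figure D2:**
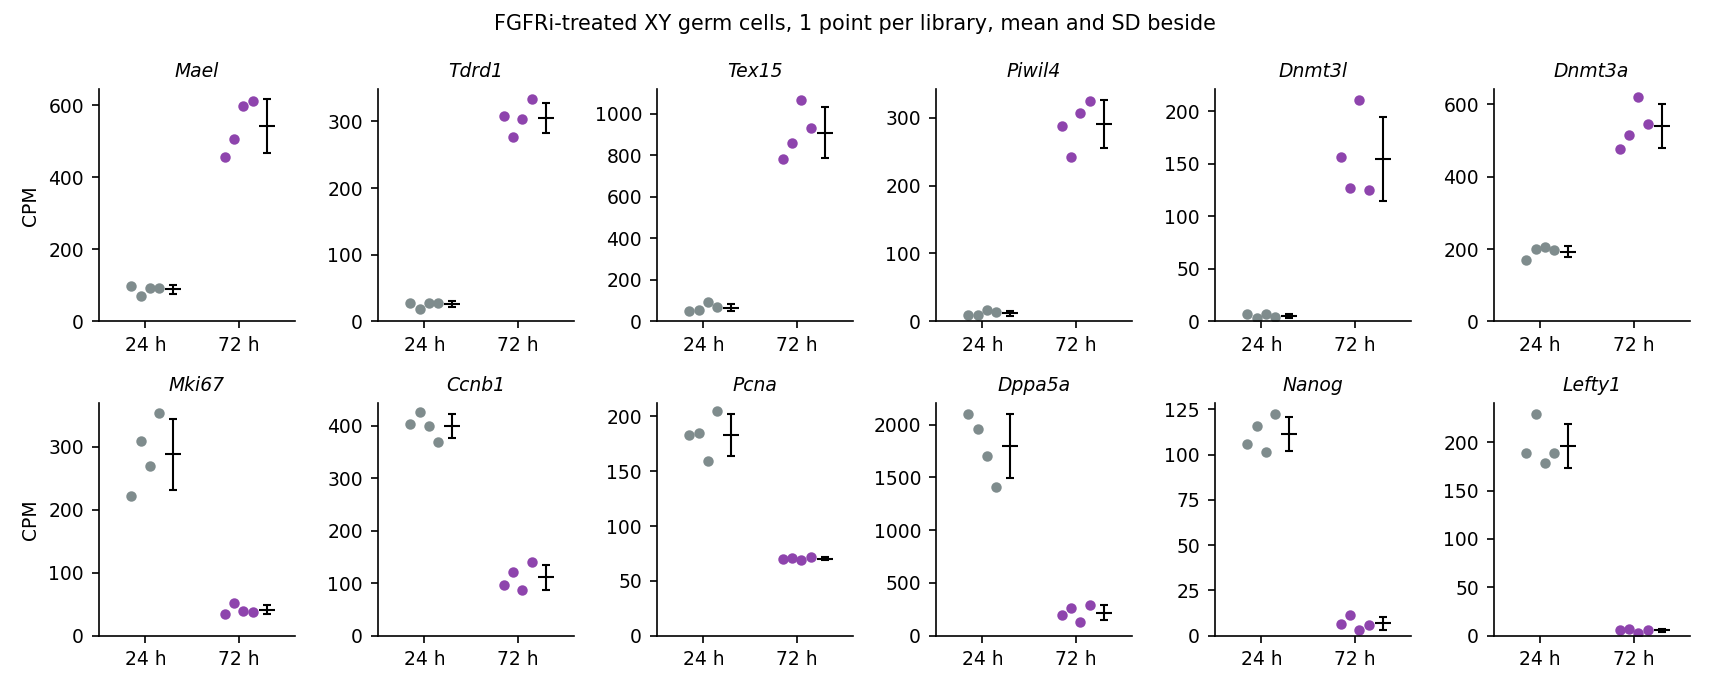
CPM of 12 genes in the 4 libraries at 24 h and the 4 at 72 h with FGFRi, 1 point per library, with the mean and SD beside them and y axes from 0. Mael, Tdrd1, Tex15, Piwil4, Dnmt3l and Dnmt3a were higher in every 72 h library, and Mki67, Ccnb1, Pcna, Dppa5a, Nanog and Lefty1 lower.

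Members of the DNA methylation machinery moved in both directions. Of 14 tested members of that list, 6 rose and 1 fell (42.9% and 7.14%, beside 19.2% and 14.2% of all genes). Dnmt3a, the de novo methyltransferase, was at 169, 199, 206 and 198 CPM at 24 h and 477, 514, 619.7 and 546 CPM at 72 h (log2 fold change 1.44 ± 0.09 (SE), adjusted p = 4.7e-11). Dnmt3b rose from 15.6 to 37.4 CPM. Dnmt3b lost its call without 24 h replicate 5. Tet1, which oxidises methylcytosine, was at 511, 675, 584 and 597 CPM at 24 h and 68.5, 79.5, 46.8 and 55.6 CPM at 72 h (log2 fold change -3.18 ± 0.15 (SE), adjusted p = 1.6e-20), whereas Tet3 of the same family rose from 9.82 to 77 CPM. The histone demethylase Kdm1b rose from 23.7 to 181 CPM. The maintenance factors Dnmt1 and Uhrf1 did not pass, with log2 fold changes of -0.25 ± 0.10 (SE) and -0.11 ± 0.16 (SE). Of 20 polycomb and PRC1.6 genes, 3 rose and 2 fell (4 and 1 with total-count scaling), shares of 15.0% and 10.0% below those of all genes. The subunits that rose were Eed (log2 fold change 1.07) and E2f6 (1.01) with the H3K9 methyltransferase Ehmt2 (1.37), and those that fell were the E-box partner Max (-1.21) and the ubiquitin ligase Rnf2 (-0.88). Of these, E2f6 lost its call with DESeq2 or thinned counts, or without 24 h replicate 3, 24 h replicate 5, 72 h replicate 2 or 72 h replicate 5. Rnf2 lost its call with DESeq2 size factors, total-count scaling, DESeq2 or low counts kept, or without 24 h replicate 4, 72 h replicate 5 or 72 h replicate 6.

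Of 39 proliferation genes, 16 fell (41%, beside 14.2% of all genes), 23 did not pass and 0 rose by treat in limma (0 at an unadjusted p under 0.05, 0 by glmTreat in edgeR, 0 by DESeq2 and 2 by eBayes), with a median of -0.67. Mki67, the marker of cycling cells, was at 221, 309.6, 269.7 and 353 CPM at 24 h and 35, 52.2, 39.8 and 37.9 CPM at 72 h (log2 fold change -2.80 ± 0.16 (SE), adjusted p = 9.3e-17). Ccnb1, the mitotic cyclin, was at 404, 426, 399 and 369.8 CPM at 24 h and 96.1, 121, 87.4 and 141 CPM at 72 h (log2 fold change -1.89 ± 0.13 (SE), adjusted p = 1.3e-12). The 24 h and 72 h libraries were apart for both, with replicate 4 the highest of the 72 h libraries for Mki67. Of mitotic genes, the kinases Plk1 (log2 fold change -2.81), Cdk1 (-2.22) and Aurkb (-2.24) and the cyclin Ccnb2 (-2.48) also fell. Of genes of DNA replication, the ribonucleotide reductase subunit Rrm2 (-2.49), Pcna (-1.37), Tyms (-1.60) and Mcm2 (-1.35) fell, while Mcm3, Mcm4, Mcm5, Mcm6 and Mcm7 did not pass, with log2 fold changes of -0.40, -0.67, -0.03, -0.43 and -0.33. Ccne1, the cyclin of S-phase entry, fell from 16.1 to 4.93 CPM. Ccne1 lost its call without 72 h replicate 2. The DMSO interval gave 22 genes that fell with a median of -1.06, and the MEKi interval 7 with a median of -0.52. For Mki67 and Plk1 the fall was larger with FGFRi than with MEKi (differences of -1.97 ± 0.21 (SE) and -1.99 ± 0.25 (SE) in log2, of which that of Plk1 lost its call with thinned counts), and at 72 h Mki67 was at 41.3 ± 7.58 CPM with FGFRi, 50.5 ± 13.8 with DMSO and 239 ± 15 with MEKi (SD, n = 4).

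Among 20 regulators of G1, 4 fell (20.0%, beside 14.2% of all genes) and 0 rose by treat (1 at an unadjusted p under 0.05, 1 by glmTreat in edgeR, 1 by DESeq2 and 3 by eBayes, and 2 by treat with total-count scaling). E2f8 and E2f3, which drive and shape S phase, fell from 14.6 to 2.85 CPM and from 51.2 to 11.8 CPM. Cdkn1a (p21), an inhibitor of cyclin-dependent kinases, was at 59.9, 103, 90.1 and 88.6 CPM at 24 h and 21.5, 28.5, 13.9 and 25.9 CPM at 72 h (log2 fold change -1.92 ± 0.18 (SE), adjusted p = 1.5e-08). It fell, as did Cdkn2d (p19), from 29.1 to 13.7 CPM. Cdkn2d lost its call with total-count scaling, DESeq2, low counts kept or thinned counts, or without 24 h replicate 1, 24 h replicate 4 or 72 h replicate 4. The inhibitors Cdkn1b (p27) and Cdkn2b (p15) did not pass, with group means of 18.1 to 16.2 CPM and 5.44 to 12.1 CPM, although Cdkn2b was called higher with total-count scaling and by eBayes.

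Pluripotency genes were the list with the largest share of members that fell in the main fit, just ahead of the primordial germ cell list. That order turned with DESeq2 size factors (11 of 19 beside 9 of 15) and with thinned counts (10 of 19 beside 8 of 14). Of 19 tested members, 12 fell (63.2%, beside 14.2% of all genes) and 1 rose, with a median of -1.89. Nanog was at 106, 116, 102 and 122 CPM at 24 h and 6.43, 11.6, 3.09 and 6.04 CPM at 72 h (log2 fold change -3.99 ± 0.25 (SE), adjusted p = 4.8e-17). Sox2 was at 182, 212, 152 and 189.9 CPM at 24 h and 38.2, 36.6, 19.3 and 38.4 CPM at 72 h (log2 fold change -2.42 ± 0.15 (SE), adjusted p = 6.9e-15). Neither pair of groups overlapped, and replicate 5 was the lowest 72 h library for both. Dppa5a, an RNA-binding protein of pluripotent cells, was at 2104, 1960.2, 1706 and 1409 CPM at 24 h and 197, 260.2, 129.5 and 288 CPM at 72 h (log2 fold change -3.07 ± 0.17 (SE), adjusted p = 3.3e-18). Dppa3 (Stella), which protects methylation in the early embryo, had one of the 5 largest falls in mean CPM among genes called without overlap, from 3044, 2948, 2649 and 2271 CPM to 487, 679, 430.3 and 934 CPM (log2 fold change -2.20 ± 0.15 (SE)). L1td1 (-4.12), Gdf3 (-3.19), Zfp42 (-2.59), Prdm14 (-2.62) and Esrrb (-2.34) fell too. Pou5f1 (Oct4), whose transgenic reporter was the gate of the sort, was at 125, 122, 123 and 109 CPM at 24 h and 59.7, 70.7, 54.9 and 83.6 CPM at 72 h (log2 fold change -0.87 ± 0.12 (SE), adjusted p = 0.035), near the threshold. It lost its call with DESeq2 size factors, total-count scaling, DESeq2, low counts kept, no quality weights or thinned counts, or without 24 h replicate 1, 24 h replicate 3, 24 h replicate 4, 72 h replicate 2 or 72 h replicate 5. Klf4 was the member that rose, from 20.1 to 48.7 CPM. Sall4 and Lin28a did not pass, at log2 fold changes of -0.62 ± 0.15 (SE) and 0.44 ± 0.19 (SE).

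Of 15 tested genes of the primordial germ cell, 1 rose and 9 fell (2 and 8 with total-count scaling), shares of 6.67% and 60.0% beside 19.2% and 14.2% of all genes. The surface proteins Ifitm1, Ifitm3, Cdh1 and Epcam fell by log2 fold changes of -2.69, -2.64, -2.78 and -2.01, and the fate regulators Tfap2c and Prdm1 (BLIMP1) by -2.42 and -1.81. Ifitm1 was at 1101, 999, 1015 and 909 CPM at 24 h and 139, 179, 120.2 and 199 CPM at 72 h, with the groups apart. Kit, the receptor of the survival factor KITL, fell from 81.7 to 38.3 CPM. Kit lost its call with total-count scaling, DESeq2, low counts kept or thinned counts. The ligand gene Fgf8 was the member that rose, from 2 counts over the 24 h libraries to 169 over the 72 h libraries, a ratio of scaled levels of 34.4 (95% exact interval 9.38 to 286, counting error only), and it was too low to be tested after counts were thinned.

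Of 15 tested genes of NODAL signalling, 7 fell (46.7%, beside 14.2% of all genes), 8 did not pass and 0 rose by treat (0 at an unadjusted p under 0.05, 0 by glmTreat in edgeR, 0 by DESeq2 and 1 by eBayes, and 1 by treat with total-count scaling). Lefty1, a secreted NODAL antagonist and NODAL target, was at 188, 229, 178 and 188 CPM at 24 h and 5.41, 7.32, 3.09 and 5.6 CPM at 72 h (log2 fold change -5.12 ± 0.28 (SE), adjusted p = 8.1e-20). Lefty2 was at 89.4, 98.6, 71.7 and 102 CPM at 24 h and 2.54, 3.03, 1.55 and 5.17 CPM at 72 h (log2 fold change -4.96 ± 0.33 (SE), adjusted p = 1.6e-16). The homeobox target Otx2 was at 29.5, 48.9, 39.6 and 37.5 CPM at 24 h and 1.18, 1.26, 1.55 and 0.862 CPM at 72 h (log2 fold change -4.87 ± 0.42 (SE), adjusted p = 1.6e-12). No 72 h library reached a 24 h library for any of these. The DNA-binding partner of SMADs Foxh1 fell from 11.1 to 0.445 CPM and Nodal itself from 11.1 to 2.54 CPM. The receptors and SMADs Acvr1b, Acvr2a, Acvr2b, Smad2, Smad3 and Smad4 did not pass, with log2 fold changes between -1.10 and 1.09. Smad3 was called lower by glmTreat, by eBayes and without 24 h replicate 1, Acvr1b higher with total-count scaling and by eBayes, and Acvr2b lower by eBayes. The DMSO interval gave 10 genes of the list that fell with a median of -3.27, and the MEKi interval 5 with a median of -0.96. With FGFRi the median was -1.10, and no member's interval was called different between FGFRi and DMSO. In the MEKi interval Lefty1, Lefty2 and Otx2 fell less or were not called, with log2 fold changes of -1.39, -2.43 and -1.05, and for each the difference between the FGFRi and MEKi intervals was called (-3.73 ± 0.31 (SE), -2.53 ± 0.37 (SE) and -3.82 ± 0.47 (SE)), that of Lefty2 being lost with thinned counts.

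**Figure D3:**
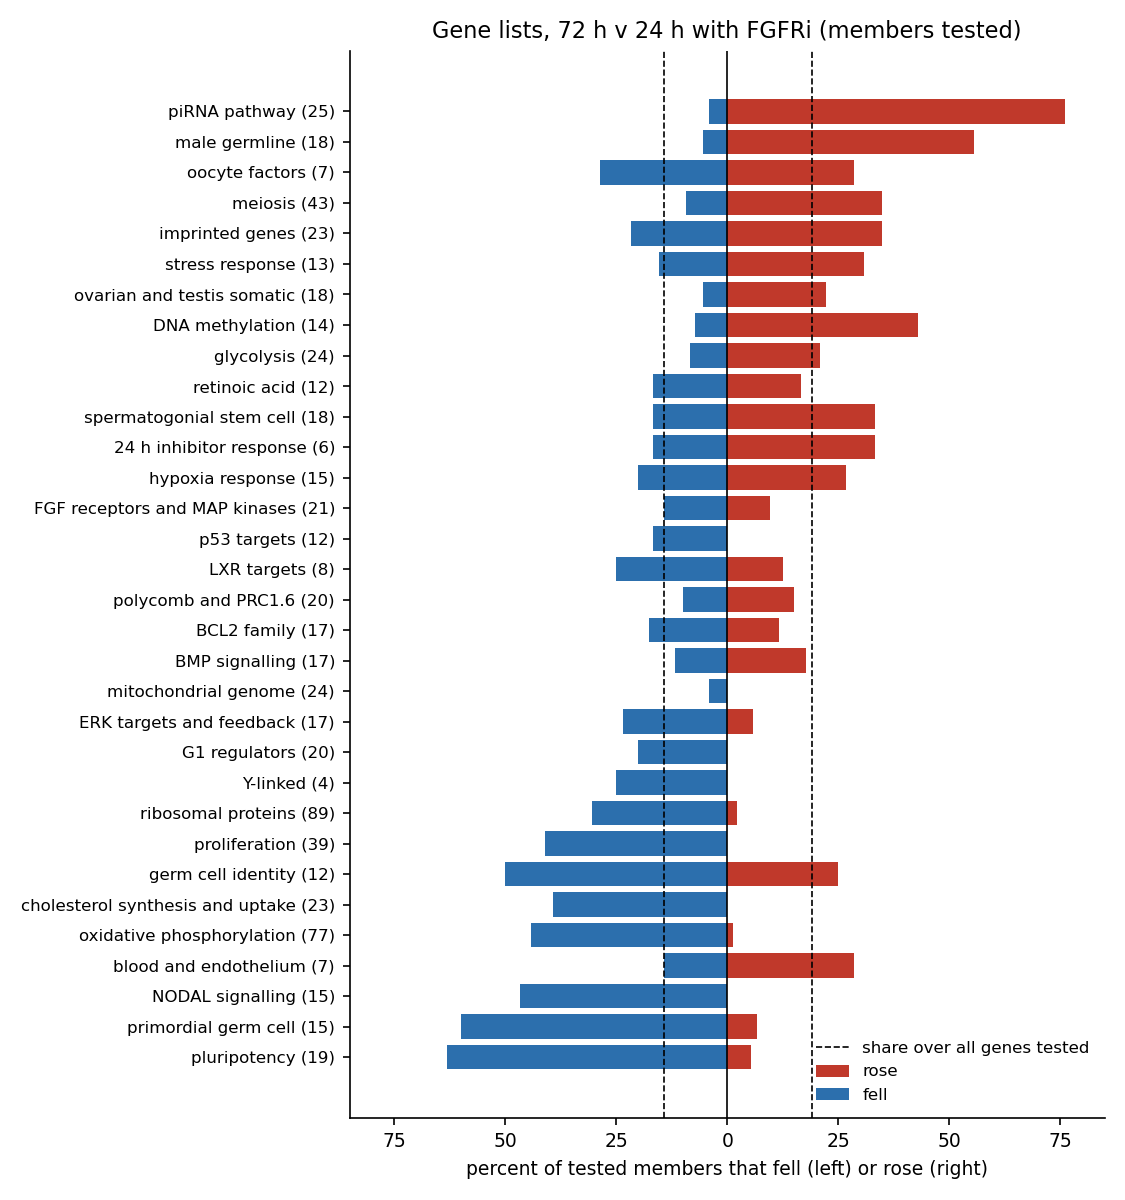
Percent of the tested members of each of 32 gene lists that rose (right) or fell (left) from 24 h to 72 h with FGFRi, with the number tested in brackets and dashed lines at the shares over all genes tested, 19.2% and 14.2%. The piRNA and male germline lists stand farthest right and the pluripotency and primordial germ cell lists farthest left.

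Of 43 tested meiosis genes, 15 rose and 4 fell (34.9% and 9.3%, beside 19.2% and 14.2% of all genes, and 10 and 2 genes with thinned counts), while 24 did not pass, with a median of 0.69. The gene of the retinoic acid response and meiotic entry, Stra8, was at 122, 103, 111 and 100.2 CPM at 24 h and 102, 185, 98.2 and 136 CPM at 72 h (log2 fold change 0.23 ± 0.19 (SE), adjusted p = 1.0), so its groups overlapped. The cohesins Rad21l and Stag3 rose, Rad21l from 0.143 to 11.6 CPM and Stag3 from 119 to 266 CPM. Sycp2 of the synaptonemal complex was at 64.2, 58.7, 74.6 and 78.1 CPM at 24 h and 221, 224, 235 and 188 CPM at 72 h (log2 fold change 1.66 ± 0.14 (SE), adjusted p = 9.5e-09). Sycp3 rose from 187 to 354 CPM with an adjusted p of 0.047 in limma. Sycp3 lost its call with low counts kept, no quality weights, thinned counts or index-linked counts removed, or without 24 h replicate 1, 24 h replicate 3, 24 h replicate 5, 72 h replicate 4 or 72 h replicate 6. Ankrd31, Tex12 and Rnf212 rose by 2.30, 2.24 and 3.64 in log2. Syce2, Hormad2, Hspa2 and Mcmdc2 fell, by -1.31, -1.20, -1.36 and -2.10. Hormad2 lost its call with total-count scaling or thinned counts, or without 72 h replicate 2 or 72 h replicate 5, and Hspa2 with thinned counts. The recombinase Dmc1 and the strand-break enzyme Spo11 did not pass and had group means of 8.7 to 8.63 CPM and 8.61 to 6.36 CPM. With MEKi 22 members rose over the interval, and 5 of the list were called lower in the FGFRi interval than in the MEKi interval, among them Meiob (-2.26 ± 0.41 (SE)) and Terb1 (-3.20 ± 0.78 (SE)). The difference in Meiob lost its call with thinned counts. The difference in Terb1 lost its call with low counts kept, no quality weights, thinned counts or index-linked counts removed, or without 24 h replicate 3, 24 h replicate 4, 24 h replicate 5, 72 h replicate 2 or 72 h replicate 5. Of 12 tested retinoic acid genes, 2 rose and 2 fell (16.7% and 16.7%, beside 19.2% and 14.2% of all genes). The nuclear receptor gene Rxra and the binding protein gene Crabp1 rose (log2 fold changes 1.37 and 2.77) and the receptor gene Rara and the retinal reductase gene Dhrs3 fell (-1.31 and -1.73). Dhrs3 lost its call with total-count scaling, low counts kept or thinned counts, or without 24 h replicate 1, 24 h replicate 4, 72 h replicate 2 or 72 h replicate 5. BMP signalling gave 3 that rose and 2 that fell, shares of 17.6% and 11.8% beside 19.2% and 14.2% of all genes. The risers numbered 0 in the 8 libraries alone, 1 in the libraries of pool 2 alone and 1 with thinned counts. The target Id3 fell from 20.5 to 3.89 CPM and the receptor gene Bmpr1b rose from 1.21 to 6.75 CPM.

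Of 18 tested members of the spermatogonial stem cell list, 6 rose and 3 fell (33.3% and 16.7%, beside 19.2% and 14.2% of all genes), while 9 did not pass. Sohlh1, a transcription factor of spermatogonial differentiation, was at 13.9, 3.26, 25.8 and 7.91 CPM at 24 h and 252, 239.7, 279.9 and 244 CPM at 72 h (log2 fold change 4.58 ± 0.31 (SE), adjusted p = 3.5e-16), and its partner Sohlh2 moved the other way, at 76.4, 82.3, 84.4 and 83.3 CPM at 24 h and 10.2, 17.7, 13.1 and 11.6 CPM at 72 h (log2 fold change -2.69 ± 0.18 (SE), adjusted p = 5.8e-15). The groups were apart for both. Zbtb16 (PLZF) rose from 2.73 to 25.3 CPM and Bcl6b from 0.849 to 12.2 CPM. The LIM homeobox gene Lhx1 was at 98.1, 133, 128 and 121 CPM at 24 h and 6.26, 10.3, 6.57 and 4.74 CPM at 72 h (log2 fold change -4.07 ± 0.26 (SE), adjusted p = 6.3e-17). Utf1 did not pass, at 407, 287, 403 and 292 CPM at 24 h and 271, 321, 359.9 and 324 CPM at 72 h. Of 7 tested members of the oocyte factor list, 2 rose and 2 fell (28.6% and 28.6%, beside 19.2% and 14.2% of all genes). The risers were Sohlh1 and the oocyte transcription factor gene Figla, from 2.58 to 27.1 CPM. Sohlh2 and Foxl2 fell. Foxl2, also listed among the gonadal somatic markers, had 14 counts over the 24 h libraries and 6 over the 72 h libraries. Only 1 member fell in the 8 libraries alone, with DESeq2 or thinned counts, or without 72 h replicate 2. The oocyte genes Gdf9, Bmp15, Zp1, Zp2 and Zp3 were too low to be tested.

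Of 17 tested ERK targets and feedback genes, 1 rose and 4 fell (5.88% and 23.5%, beside 19.2% and 14.2% of all genes), with a median of -0.40. The riser was Etv4, whose call was lost in several settings given below. The DMSO interval gave 8 genes that fell with a median of -1.06, and the MEKi interval 6 with a median of -0.51. Dusp4, a phosphatase of ERK, was at 13.9, 22, 14.9 and 18.5 CPM at 24 h and 1.35, 0.252, 0.773 and 1.29 CPM at 72 h (log2 fold change -4.25 ± 0.58 (SE), adjusted p = 3.6e-07). Etv5, an ETS factor, was at 59.9, 91.2, 79.8 and 64.4 CPM at 24 h and 8.8, 10.9, 17 and 9.05 CPM at 72 h (log2 fold change -2.82 ± 0.20 (SE), adjusted p = 1.3e-13). The groups were apart for both. Spred2 fell from 54.5 to 17 CPM, and Etv1 from 4.64 to 1.29 CPM. Etv1 lost its call with DESeq2 size factors, total-count scaling, low counts kept, no quality weights or thinned counts, or without 24 h replicate 4, 24 h replicate 5, 72 h replicate 2, 72 h replicate 4 or 72 h replicate 5. Dusp6, Spry1, Spry2 and Spry4 did not pass, with group means of 7.92 to 3.56 CPM, 5.64 to 4.39 CPM, 8.93 to 5.72 CPM and 0.562 to 0.593 CPM, although Dusp6 was called lower by glmTreat and by eBayes. Of 21 tested FGF receptors and MAP kinase components, 2 rose and 3 fell (3 and 2 with total-count scaling), shares of 9.52% and 14.3% beside 19.2% and 14.2% of all genes. Of the receptors, Fgfr2 fell from 17.9 to 6.04 CPM, a call lost with total-count scaling or thinned counts, whereas Fgfr1 and Fgfr3 did not pass, with means of 28.8 to 44.8 CPM and 5.66 to 6.84 CPM. Mapk3 (ERK1) was at 37.3, 28.5, 49.4 and 35.3 CPM at 24 h and 148, 129, 177 and 141 CPM at 72 h (log2 fold change 1.95 ± 0.17 (SE), adjusted p = 1.1e-09). Map2k1 (MEK1) fell from 33.4 to 11.8 CPM, and Map2k2 (MEK2) did not pass (-0.50). The scaffold gene Ksr1 rose and the exchange factor gene Sos1 fell, by 2.05 and -1.34 in log2. Ksr1 lost its call with thinned counts.

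Against the DMSO interval, 4 genes took a higher step with FGFRi (0.0262% of genes tested) and 1 a lower step (0.00656%). These were the ETS factor Etv4, the GDNF receptor Ret, the BCL2-family gene Pmaip1 (NOXA), the scaffold gene Nherf1 and, in the lower direction, the matrix gene Sparcl1. Etv4 was at 0 counts in all 4 libraries at 24 h with FGFRi and at 1.69, 1.01, 3.09 and 2.59 CPM at 72 h. Against a floor of 3 counts over the group its level was at least 3.8-fold higher. With DMSO it went from 27.9 ± 7.19 to 3.99 ± 2.13 CPM (SD, n = 4), and the fitted difference between the intervals was 5.20 ± 0.79 (SE) (adjusted p = 0.0020 in limma). The rise itself had an adjusted p of 0.020 in limma, which was 0.43 with thinned counts and 0.058 to 0.059 without 24 h replicate 4, 24 h replicate 5 or 72 h replicate 5, and Etv4 was too low to be tested in fits to pool 2 or to the 8 libraries alone. Ret was at 2.6, 0, 2.87 and 0 CPM at 24 h and 14.9, 10.3, 15.5 and 9.05 CPM at 72 h, with all 72 h libraries above all 24 h libraries, and at 30.8 ± 4.63 and 22.6 ± 1.45 CPM with DMSO (difference 4.15 ± 0.66 (SE), adjusted p = 0.0039). Pmaip1 was at 6.95, 4.89, 7.46 and 12.1 CPM at 24 h and 10.8, 11.6, 12.4 and 8.19 CPM at 72 h, with overlapping groups, and fell with DMSO from 66.5 ± 4.56 to 16.5 ± 5.45 CPM (difference 2.61 ± 0.37 (SE), adjusted p = 0.0039). Nherf1 was at 37.3, 47.3, 27 and 27.4 CPM at 24 h and 50.6, 39.4, 54.5 and 50.4 CPM at 72 h with FGFRi, with overlapping groups, and went from 137 ± 22.4 to 55.6 ± 8.91 CPM with DMSO. Sparcl1 was at 17.4, 7.33, 14.3 and 9.49 CPM at 24 h and 4.23, 5.05, 5.41 and 4.74 CPM at 72 h with FGFRi, and at 3.0 ± 0.853 and 13.7 ± 5.69 CPM with DMSO. Its lower level at 72 h with FGFRi did not pass by treat and was called by glmTreat, by eBayes, in the 8 libraries alone and without 24 h replicate 3. In each of the first 4 the DMSO level was the higher at 24 h, and those 24 h levels were measured in the other pool. All 5 calls were lost when every library was thinned to the lowest total, that of Ret also without 24 h replicate 5, that of Nherf1 without 24 h replicate 4, 24 h replicate 5 or 72 h replicate 2, and that of Sparcl1 with low counts kept and without 72 h replicate 2. Of these, Etv4, Ret and Pmaip1 belong to a list of 6 genes that were chosen from earlier results of these libraries, so their count is no independent evidence. The other members Etv1, Lrrfip1 and Pdk1 had log2 fold changes with FGFRi of -1.99 ± 0.61 (SE), -0.79 ± 0.17 (SE) and -0.02 ± 0.21 (SE), of which Etv1 alone was called.

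**Figure D4:**
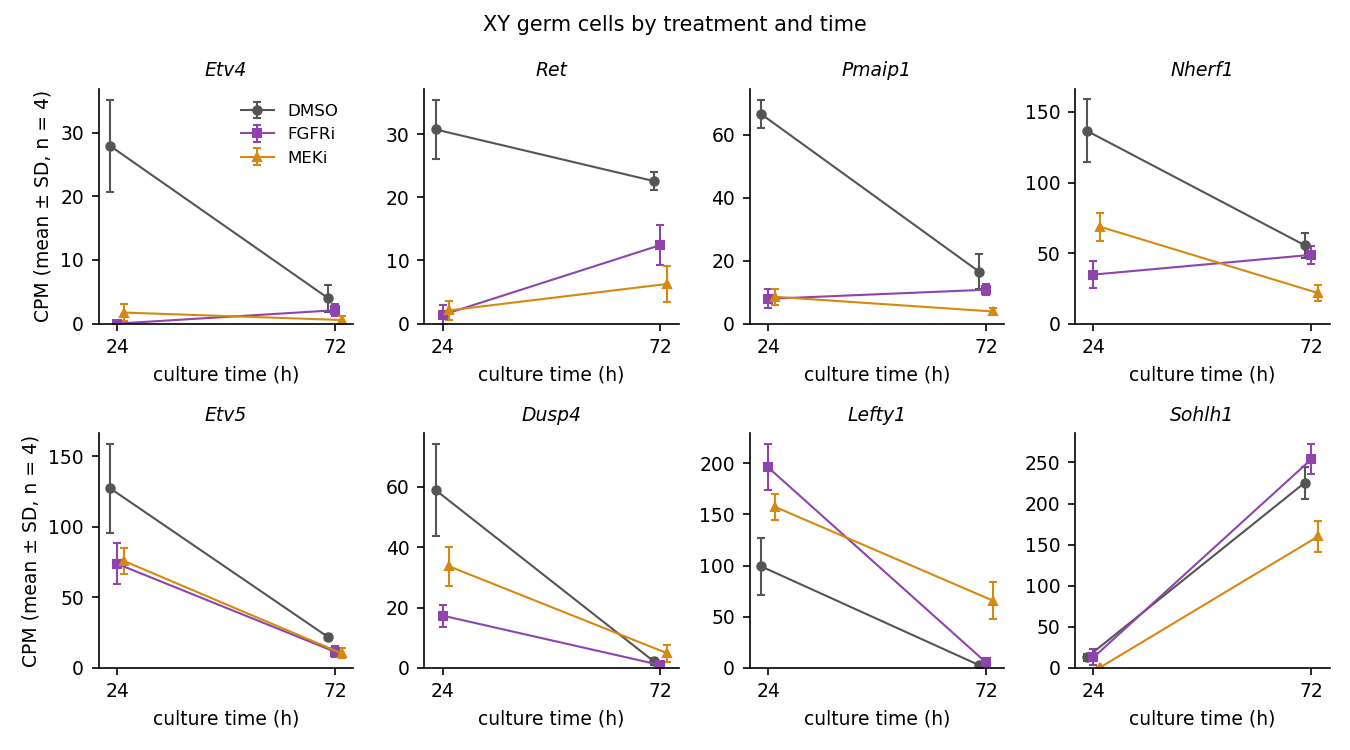
Mean CPM and SD (n = 4 libraries) of 8 genes in XY germ cells at 24 h and 72 h of culture with DMSO, FGFRi or MEKi, with y axes from 0 and points shifted sideways for visibility. Etv4, Ret and Pmaip1 start low with both inhibitors and Ret rises with FGFRi, while Lefty1 stays at 65.8 CPM at 72 h with MEKi against 5.36 CPM with FGFRi.

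The FGFRi and DMSO intervals, which share no library, mostly called the same genes. With DMSO 16.0% of genes tested rose and 11.3% fell. Of the 2934 genes that rose with FGFRi, 2072 also rose with DMSO, 70.6% of the FGFRi list and 85.1% of the DMSO list, and of the 2172 that fell, 1371 fell with DMSO, 63.1% and 79.3%. A single gene was called in opposite directions. The 861 risers that were not called with DMSO had a median log2 fold change of 0.81 there, and 845 of them had the same sign. With MEKi 10.9% of genes tested rose and 5.51% fell. Shared genes numbered 1293 that rose, 44.1% of the FGFRi list and 77.6% of the MEKi list, and 652 that fell, 30.0% and 77.6%.

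Against the MEKi interval, 124 genes took a higher step with FGFRi (0.813%) and 253 a lower step (1.66%). Of the 124, 111 had risen with FGFRi and 97 of these were not called with MEKi. Of the 253, 212 had fallen with FGFRi and 177 of these were not called with MEKi. The lysosomal protease gene Ctsc was at 3.47, 0.815, 5.74 and 6.33 CPM at 24 h and 128, 103, 122 and 125 CPM at 72 h, and with MEKi at 4.74 ± 1.63 and 14.3 ± 6.55 CPM (difference 3.33 ± 0.58 (SE)). The secreted protein gene Fstl1 was at 9.55, 4.07, 8.03 and 12.1 CPM at 24 h and 95.3, 80.2, 127 and 122 CPM at 72 h, and with MEKi at 20.9 ± 5.19 and 27.1 ± 4.63 CPM (difference 3.08 ± 0.39 (SE)). Every 72 h FGFRi library was above every 24 h FGFRi library for both, and with MEKi Ctsc rose and Fstl1 did not pass. Cfap251, Ccdc92b and Rian were among the other large positive differences, with log2 values of 3.63, 3.48 and 2.96, beside Etv4 at 4.82. Of these, Cfap251 lost its call with DESeq2, glmTreat or thinned counts, or without 24 h replicate 1, 24 h replicate 3, 24 h replicate 5, 72 h replicate 2 or 72 h replicate 5. Ccdc92b and Etv4 lost theirs with thinned counts, and Rian without 24 h replicate 1 or 24 h replicate 5. In the negative direction, beside Lefty1, Otx2 and Terb1, the small nucleolar RNA gene Gm24336 (-4.34), the cyclin partner gene Inca1 (-3.53), the MHC class I gene H2-D1 (-3.48) and Sohlh1 (-3.34) were named. Inca1 lost its call with thinned counts, H2-D1 with thinned counts or without 24 h replicate 4 and Sohlh1 without 24 h replicate 4. Sohlh1 rose with both inhibitors, from 0.629 ± 0.774 to 160.1 ± 19.3 CPM with MEKi.

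**Figure D5:**
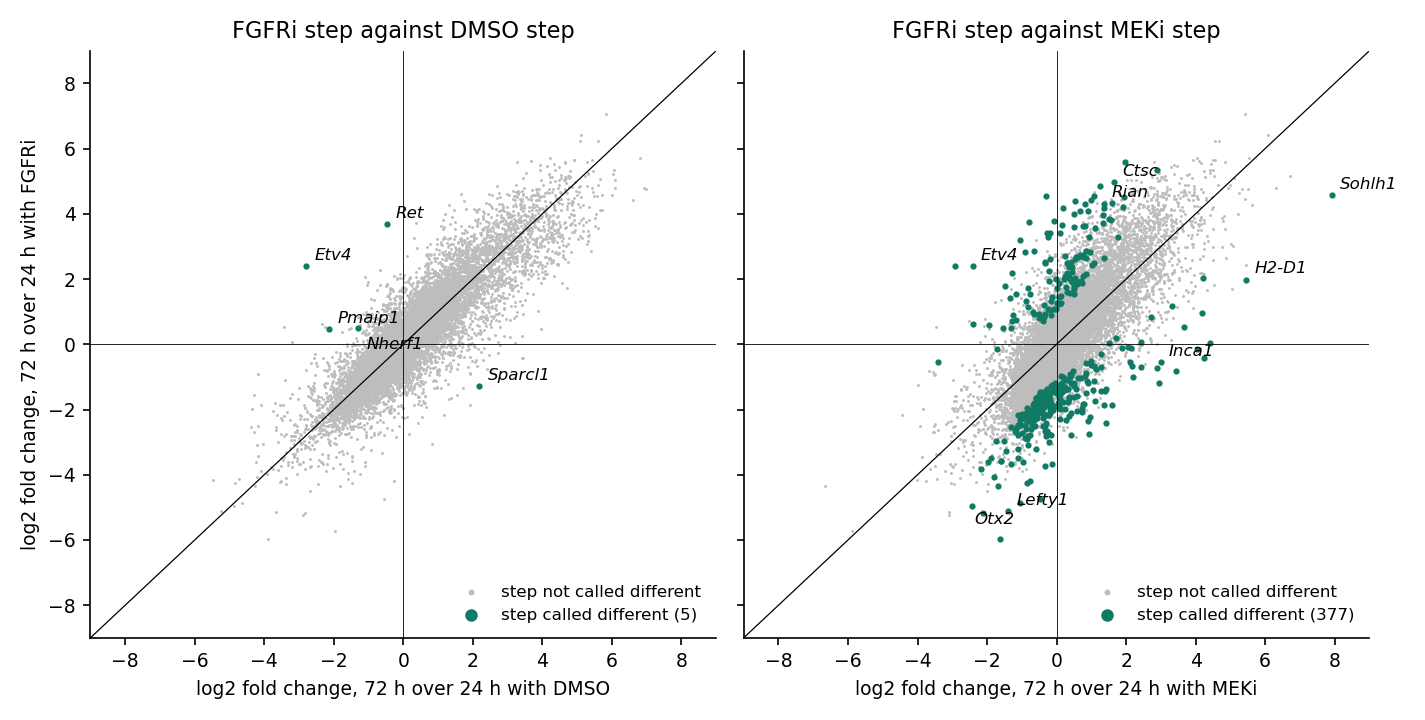
Log2 fold change of 72 h over 24 h with FGFRi (y axis) against that with DMSO (left) or MEKi (right) for 15252 genes, with the line of equal steps. The 5 genes called different from DMSO and the 377 called different from MEKi are coloured, and Sohlh1 at 4.58 with FGFRi and 7.92 with MEKi lies far below the line.

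Of 77 nuclear genes of oxidative phosphorylation, 34 fell (44.2%, beside 14.2% of all genes) and 1 rose, with a median of -0.79. With total-count scaling 28 fell and 2 rose, with a median of -0.57. Of 24 tested genes of the mitochondrial genome, 1 fell, a call lost under both other scalings. The number was also 0 with DESeq2, low counts kept or thinned counts, or without 24 h replicate 1 or 5 or 72 h replicate 4. It was 2 in pool 2 alone or without 72 h replicate 6, 3 in the 8 libraries alone and 6 by eBayes. All 37 listed genes held 1.87 ± 0.178% (SD, n = 4) at 24 h and 1.5 ± 0.267% at 72 h of counts (exact permutation p = 0.0571, adjusted p = 0.08). Of 89 ribosomal protein genes, 27 fell and 2 rose (18 and 4 with total-count scaling). The share that fell was 30.3%, beside 14.2% of all genes. Their share of counts went from 5.55 ± 0.347% to 3.99 ± 0.355% (exact permutation p = 0.0286, adjusted p = 0.05). These genes have many processed pseudogenes that can take reads, and of 1401 processed pseudogenes tested 325 fell (23.2%) and 43 rose (3.07%). Of 23 genes of cholesterol synthesis and uptake, 9 fell (39.1%, beside 14.2% of all genes) and 0 rose by treat (0 at an unadjusted p under 0.05, 0 by glmTreat in edgeR, 0 by DESeq2 and 0 by eBayes), with 6 falling under total-count scaling. Of 24 tested genes of glycolysis, 5 rose and 2 fell (9 and 1 with total-count scaling), shares of 20.8% and 8.33% beside 19.2% and 14.2% of all genes, with the phosphofructokinase genes Pfkm and Pfkp among the risers (2.02 and 2.11 in log2). The lactate dehydrogenase subunit genes moved in opposite directions, Ldhb from 691, 521, 622 and 582 CPM to 49.9, 55.5, 31.3 and 62.1 CPM (log2 fold change -3.60 ± 0.14 (SE)) and Ldha from 27.8, 38.3, 33.9 and 34.8 CPM to 114, 76.2, 98.2 and 93.1 CPM (1.48 ± 0.18 (SE)).

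Of 17 tested genes of the BCL2 family and apoptosis, 2 rose and 3 fell (4 and 3 under both other scalings), shares of 11.8% and 17.6% beside 19.2% and 14.2% of all genes. Trp53 (p53) was at 226, 249, 222 and 245 CPM at 24 h and 30.6, 34.6, 25.1 and 25.4 CPM at 72 h (log2 fold change -2.97 ± 0.15 (SE), adjusted p = 7.7e-20), and the death effectors Bax and Bik fell from 150.2 to 54.8 CPM and from 32.5 to 10.4 CPM, the call of Bik being lost with thinned counts. The survival gene Bcl2l1 rose from 44 to 101 CPM and the caspase gene Casp9 from 22.9 to 90.0 CPM. Of 12 tested p53 targets, 2 fell, Cdkn1a and Trp53inp1, and 0 rose by treat (0 at an unadjusted p under 0.05, 0 by glmTreat in edgeR, 0 by DESeq2 and 2 by eBayes), so 16.7% fell beside 14.2% of all genes. Of 13 tested stress response genes, 4 rose and 2 fell (30.8% and 15.4%, beside 19.2% and 14.2% of all genes). The serine synthesis enzyme Phgdh was at 15.6, 10.6, 28.1 and 14.2 CPM at 24 h and 149, 171, 128 and 155 CPM at 72 h (log2 fold change 3.18 ± 0.22 (SE), adjusted p = 1.6e-14), Atf4 fell by -1.23 and Trib3 by -2.27 in log2, and Ddit3 (CHOP) rose from 5.89 to 18.7 CPM. Ddit3 lost its call with thinned counts or without 24 h replicate 1 or 24 h replicate 4. Of 15 hypoxia response genes, 4 rose and 3 fell (4 and 1 with total-count scaling), shares of 26.7% and 20.0% beside 19.2% and 14.2% of all genes, with Ndrg1 at 2.47 and the glycolytic regulator Pfkfb3 at -2.52 in log2. Of 8 tested targets and receptors of the LXR pathway, 1 rose and 2 fell. The cholesterol exporter gene Abca1 rose from 62.3 to 129 CPM, and its relative Abcg1 fell from 242 to 86.8 CPM.

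Imprinted genes moved in both directions. Of 23 tested members, 8 rose and 5 fell (34.8% and 21.7%, beside 19.2% and 14.2% of all genes). The maternally expressed non-coding RNAs of the Dlk1-Dio3 region Meg3, Rian and Mirg rose, Meg3 from 10.4, 5.7, 6.31 and 3.16 CPM to 69.7, 44.9, 77.7 and 49.6 CPM and Rian and Mirg by 4.32 and 3.86 in log2. Peg10 and Sgce, paternally expressed neighbours of each other at another locus, rose by 4.29 and 4.17, and Grb10 was at 7.81, 6.52, 18.9 and 5.27 CPM at 24 h and 105, 88.6, 142 and 85.4 CPM at 72 h (log2 fold change 3.50 ± 0.32 (SE), adjusted p = 3.7e-11). Snrpn, Mest, Usp29, Peg3 and Gnas fell, by -3.50, -2.59, -1.83, -1.71 and -1.69, and Igf2r and H19 did not pass.

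The largest rises outside the lists were mostly in genes near absence at 24 h, which a ranking by log2 fold change favours. Gm3858, an X-linked predicted coding gene, was at 2.6, 0, 4.59 and 0.527 CPM at 24 h and 192, 188, 221 and 187 CPM at 72 h (log2 fold change 7.05 ± 0.57 (SE), adjusted p = 3.7e-14). Tmc2, a channel subunit gene, was at 1.74, 0.815, 1.15 and 1.05 CPM at 24 h and 103, 97.7, 121 and 141 CPM at 72 h (log2 fold change 6.22 ± 0.56 (SE), adjusted p = 2.1e-12), and the dipeptidase gene Dpep3 at 4.34, 0, 1.72 and 1.58 CPM at 24 h and 87.3, 82, 86.6 and 68.1 CPM at 72 h. The X-linked non-coding gene Tslrn1 had 1 count over the 24 h libraries and 563 over the 72 h libraries, a ratio of scaled levels of 229 (95% exact interval 41 to 9070.1). Rbfox3, Ndrg4 and Cyp2c55 rose by 5.65, 5.63 and 5.71 in log2. Among genes that fell, Gm24336 was at 60.8, 84.7, 54.5 and 71.7 CPM at 24 h and 0.508, 1.26, 1.16 and 2.16 CPM at 72 h (log2 fold change -5.98 ± 0.64 (SE), adjusted p = 4.2e-10), the aldehyde dehydrogenase gene Aldh1b1 at 46.9, 36.7, 37.9 and 41.7 CPM at 24 h and 1.86, 2.52, 1.55 and 2.59 CPM at 72 h, and Khdc3, a maternal-effect gene of oocytes, at 17.4, 35.8, 13.8 and 22.7 CPM at 24 h and 1.35, 0.757, 0.773 and 1.29 CPM at 72 h. The embryonic globin gene Hbb-y, a marker of primitive red cells, was at 30.4, 20.4, 20.7 and 23.7 CPM at 24 h and 0, 0.252, 12 and 0.862 CPM at 72 h, so replicate 5 at 72 h stood apart from the other three, and the fall was not called by DESeq2. Of 7 tested blood and endothelial markers, 2 rose and 1 fell (28.6% and 14.3%, beside 19.2% and 14.2% of all genes), the risers being Alas2 and the endothelial cadherin gene Cdh5, from 0.754 to 6.07 CPM. The globins Hba-a1 and Hbb-bs did not pass, with log2 fold changes of -0.94 ± 0.49 (SE) and -0.84 ± 0.62 (SE).

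Markers of other cells were low at both times. Of 18 tested gonadal somatic markers, 4 rose and 1 fell (22.2% and 5.56%, beside 19.2% and 14.2% of all genes). The follistatin gene Fst, the steroidogenic gene Star, Pdgfra and Pax8 rose, with means from 2.31 to 8.86 CPM, 1.86 to 8.64 CPM, 1.49 to 9.93 CPM and 1.57 to 20.6 CPM, and Foxl2 fell from 2.51 to 0.371 CPM. Fst lost its call with thinned counts or without 24 h replicate 3 or 72 h replicate 2. Foxl2 lost its call with DESeq2 or without 72 h replicate 2. The Sertoli cell gene Sox9 was at 13.9, 11.4, 12.6 and 12.7 CPM at 24 h and 14.4, 5.8, 6.57 and 13.8 CPM at 72 h and did not pass. Their part in the other results was not tested. On the X chromosome, 146 of 635 genes tested rose (23.0%) and 105 fell (16.5%), against 19.1% and 14.1% of autosomal genes. Of 4 Y-linked genes, Eif2s3y fell from 159.7, 145, 133 and 107 CPM to 71.9, 65.1, 59.5 and 89.7 CPM (log2 fold change -0.94 ± 0.12 (SE), lost with total-count scaling, DESeq2 or low counts kept), and Ddx3y, Kdm5d and Uty did not pass, at 0.47, -0.79 and -0.49 in log2.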

How the data were processed

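Poly(A)-primed 3' libraries with unique molecular identifiers were sequenced as 2 pools of 20. The authors aligned reads to GRCm39 and counted molecules per gene with scPipe and Rsubread, and deposited 1 table of raw counts of 42422 genes in 40 libraries. Its columns were matched to the library names in the labels, and 0 columns were left unused. Gene symbols were matched for 40391 identifiers (1.05% of counts were in the others).

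Genes were kept by filterByExpr in edgeR 4.0.16 at its defaults (at least 10 counts in enough libraries and 15 in all). The 15252 genes retained held 99.2% of counts. Counts were scaled by TMM and fitted with voom quality weights in limma 3.58.1 (R 4.3.3), with 1 mean for each of 10 groups over all 40 libraries. Steps were tested by treat against a fold change of 1.5 with Benjamini-Hochberg FDR under 0.05, and the differences between steps in the same fit. Adjusted p-values are from this test unless another is named. The fit was tested on simulated data. No label says which libraries came from the same gonads or day, so the p-values measure the spread between these libraries. Shares of counts were compared by exact permutation over 70 regroupings. Counts sharing an index were removed by a limit set by genes with at least 300 partner counts, because the regression planned for this exceeded that limit in all 4 libraries. DESeq2 1.42.0, other scalings, filters, thinned counts and left-out libraries were alternatives.

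Members and gene lists were chosen with earlier results of these data known. Genes could be named from the lists, as the 12 largest changes in each direction and the 5 largest in mean CPM among called genes without overlap and with at least 20 CPM, as any gene called against DMSO, or as the 8 largest in each direction against MEKi. Genes with near-identical copies, such as Lefty1 and Lefty2, Dppa5a, globins, H2-D1, X-linked families and ribosomal proteins, are uncertain where reads were shared. Intervals cover counting error only. Promoters are from RefSeq on GRCm38.p6, matched by symbol for 10165 of 15251 symbols.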

Additional observations from a re-analysis of the deposited data

Results flagged for a closer look

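In groups of 4 libraries, a library was marked where its gap to the nearest other exceeded Dixon's 95% limit, as a share of the range of the group. This held for 25 of 426 sets of values, 5.87%. Chance marks about 1 in 20 where values are continuous and normal. A set with 1 library above 0 and the others at 0 is always marked, as for Cfap251, Rad21l and Tslrn1, so these rates are not like for like. Replicate 3 at 24 h was the highest and apart for Kit at 91.2 CPM. Replicate 3 at 24 h was the lowest and apart for Mael at 69.3 CPM, Spry1 at 2.44 CPM and Tdrd1 at 18.7 CPM. Replicate 4 at 24 h was the highest and apart for Cfap251 at 0.574 CPM, Lin28a at 43 CPM, Rad21l at 0.574 CPM, Rnf212 at 8.03 CPM, Spo11 at 17.8 CPM, Tdrd9 at 24.7 CPM, Tet3 at 13.2 CPM and Tslrn1 at 0.574 CPM. Replicate 5 at 24 h was the highest and apart for Gnas at 104 CPM, Peg3 at 386 CPM and Trp53inp1 at 114 CPM. Replicate 2 at 72 h was the lowest and apart for Bcl2l1 at 84.8 CPM. Replicate 4 at 72 h was the lowest and apart for Acvr2a at 9.59 CPM and Pdk1 at 23.2 CPM. Replicate 5 at 72 h was the highest and apart for Gm3858 at 221 CPM, Hbb-y at 12 CPM and Tet3 at 92.8 CPM. Replicate 5 at 72 h was the lowest and apart for Gdf3 at 1.55 CPM and Sox2 at 19.3 CPM. Replicate 6 at 72 h was the highest and apart for Tex101 at 250.5 CPM. The blood and endothelial markers took 0.00965% of counts in 72 h replicate 5, against 0.00482 to 0.00512% in the other 72 h libraries, and Hbb-y was high in the same library.

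Steps of named genes were also marked where limma's test of the difference between treatments was called, given here as the FGFRi log2 fold change less the other. Against DMSO these were Etv4 5.20, Ret 4.15, Pmaip1 2.61, Nherf1 1.80 and Sparcl1 -3.47. Against MEKi the FGFRi step was higher for Etv4 4.82, Sgce 3.99, Cfap251 3.63, Ccdc92b 3.48, Ctsc 3.33, Fstl1 3.08, Rian 2.96, Meg3 2.37, Rhox10 2.23, Nherf1 2.05, Utf1 1.56, Brdt 1.48, Dppa4 1.18 and Eed 1.10. It was lower for Trp53 -1.23, Cdk1 -1.31, Gnas -1.44, Syce2 -1.51, Hormad2 -1.61, Snrpn -1.62, Ldhb -1.62, Hspa2 -1.93, Mki67 -1.97, Plk1 -1.99, Meiob -2.26, Lhx1 -2.27, Nanos2 -2.36, Sohlh2 -2.39, Lefty2 -2.53, Dhrs3 -2.83, Terb1 -3.20, Sohlh1 -3.34, H2-D1 -3.48, Inca1 -3.53, Lefty1 -3.73, Otx2 -3.82, Foxl2 -3.85 and Gm24336 -4.34. The 24 h libraries of both other treatments were in the other pool, so the pool cannot be told apart from the treatment in these differences. Against MEKi, calls were lost with the counts of the shared index removed for Nanos2, Snrpn, Terb1 and Trp53, with DESeq2 for Cdk1, Cfap251, Eed, Foxl2, Nanos2, Sgce and Trp53, with total-count scaling for Eed, with DESeq2 size factors for Cdk1, Foxl2 and Nanos2 and with thinned counts for Brdt, Ccdc92b, Cdk1, Cfap251, Dhrs3, Dppa4, Eed, Etv4, Gnas, H2-D1, Hormad2, Hspa2, Inca1, Lefty2, Lhx1, Meg3, Meiob, Nanos2, Plk1, Rhox10, Snrpn and Terb1. They were also lost with glmTreat for Cfap251, with low counts kept for Cdk1, Eed, Foxl2, Gnas, Lhx1, Nanos2, Snrpn, Terb1 and Trp53 and with no quality weights for Cdk1, Eed, Foxl2, Nanos2, Terb1 and Trp53. Leaving out 1 library ended calls without 24 h replicate 1 for Cdk1, Cfap251, Eed, Foxl2, Nanos2 and Rian, without 24 h replicate 3 for Cfap251, Eed, Foxl2, Nanos2, Rhox10, Terb1 and Trp53, without 24 h replicate 4 for Eed, H2-D1, Nanos2, Sohlh1 and Terb1, without 24 h replicate 5 for Cdk1, Cfap251, Eed, Gnas, Meg3, Rhox10, Rian, Terb1 and Trp53, without 72 h replicate 2 for Cdk1, Cfap251, Foxl2, Hormad2, Nanos2, Snrpn, Terb1 and Trp53, without 72 h replicate 4 for Cdk1, without 72 h replicate 5 for Cdk1, Cfap251, Eed, Foxl2, Hormad2, Nanos2, Snrpn, Terb1 and Trp53 and without 72 h replicate 6 for Eed, Foxl2, Nanos2 and Trp53.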

How the results depend on the processing

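Counts of genes called were recomputed under each alternative. Against 2934 higher and 2172 lower, an eBayes test with an observed fold over 1.5 gave 4475 and 3776, thinning every library to 1178953 counts gave 1951 and 1548, keeping low counts gave 3825 and 2248, glmTreat in edgeR gave 3366 and 2555, DESeq2 gave 2776 and 1662, and the 8 libraries alone gave 2457 and 2071. The other scalings gave 3162 and 1923 (DESeq2 size factors) and 3632 and 1479 (total counts). Leaving out 1 library gave 2732 to 3095 higher and 1821 to 2190 lower. For the 5 genes whose step differed from DMSO the count was 9 by glmTreat, 563 by eBayes, 15 without a filter and 0 by treat with thinned counts, where 306 genes had an unadjusted p under 0.05, and DESeq2 on all counts gave 6. It was 3 to 6 without 1 library, with 3 without 72 h replicate 2. For the 377 that differed from MEKi the count was 707 by glmTreat, 3011 by eBayes and 132 with thinned counts, and 245 (without 72 h replicate 2) to 426 without 1 library. List members called were 256, or 395 by eBayes, which applies no fold threshold within the test. Thinning leaves fewer counts, and the cause of the other changes was not tested.

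Only numbers 4 and 5 occur in both groups and their pairs correlated at -0.02 and 0.08, so the libraries share only a number. With the replicate number as a block, 2625 genes were higher and 1998 lower, 4 and 316 differed from DMSO and MEKi, and 243 list members were called. Named genes not called with this block were Bmpr1b, Dppa4, E2f6, Foxl2, Sycp3 and Tdrd12 for the FGFRi interval, Ret against DMSO, and Eed, Foxl2, Nanos2 and Rhox10 against MEKi. Of 206 named genes, 161 of them called, none changed direction under any alternative by limma, edgeR or DESeq2, while 239 gene-by-alternative calls were lost and 19 gained, the losses most often with thinned counts. Fgfr1 was called higher and Kdm5d, Lrrfip1, Mcm4 and Sall4 lower by eBayes alone. The difference in the X-linked share, which was not called, went from -0.0159 to 0.0718 percentage points without 1 library. Genes at a few counts per library are limited by depth, and the lower depth at 24 h limits them most.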

Other observations

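Classes of transcript outside the gene lists moved unevenly. Of 19 small nucleolar RNA genes tested, 11 fell and the others did not pass, with a median log2 fold change of -2.27, and of 681 long non-coding RNA genes 134 rose (19.7%) and 92 fell (13.5%), beside 19.2% and 14.2% of all genes. Of 18 genes annotated to the Y chromosome, 6 rose and 2 fell (33.3% and 11.1%, beside 19.2% and 14.2% of all genes). Of the 4 genes used as Y-linked markers 1 fell, and a difference between these sets was not tested. Among the most abundant genes that fell, the chaperone gene Hsp90ab1 was at 3803, 3215, 2806 and 3065 CPM at 24 h and 1250.4, 1639, 2060.1 and 1937 CPM at 72 h (log2 fold change -0.98 ± 0.13 (SE), lost with total-count scaling or DESeq2, or without 72 h replicate 2) and the ribosomal protein gene Rpl41 at 4261, 3898, 3299.9 and 2831 CPM at 24 h and 1184, 1648, 1745 and 2326 CPM at 72 h (-1.15 ± 0.16 (SE), lost with DESeq2 or without 72 h replicate 2). Gm28437, a copy of mitochondrial sequence that can share reads with the mitochondrial genome, was at 6568, 5891, 4706 and 4479.9 CPM at 24 h and 1676, 2385, 3077 and 3647 CPM at 72 h, a fall lost with total-count scaling or DESeq2, or without 72 h replicate 2. The helicase gene Ddx24 had one of the 5 largest rises in mean level, at 509, 455, 486 and 434 CPM at 24 h and 699.7, 836, 957 and 1069 CPM at 72 h (log2 fold change 0.85 ± 0.10 (SE)), a call lost with low counts kept or without 24 h replicate 3, 24 h replicate 5 or 72 h replicate 6.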
